A study of Mus musculus with 4 samples.

Results

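Integrins and laminins were followed in 4 primordia of ICR mice, an outbred strain, at E11.5 (days of embryonic life counted from the vaginal plug): lung, esophagus, stomach and intestine. The genes were chosen by name, as every probe whose accession maps to an integrin alpha chain (Itga), an integrin beta chain (Itgb) or a laminin chain (Lama, Lamb, Lamc). This gave 49 of 24375 named probes and 33 of 16995 named genes, of which 16 encode alpha chains, 7 encode beta chains and 10 encode laminin chains. Of the 37 genes that fit the name in the reference table, Itga10, Itgad, Itgb8 and Lama3 were not analysed here. Each organ was 1 array of total RNA from embryos for which no treatment is named, and whether embryos were pooled is not stated in the sources used here. The extraction protocol names stomach for every sample, so the organ was taken from the tissue label. No organ was measured more than once, so no test between organs was possible and every difference below is a description of 1 sample against another.

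Laminins are cross-shaped proteins built of an alpha, a beta and a gamma chain, and they form the sheet of the basement membrane that separates epithelium from mesenchyme. Integrins are receptors of an alpha and a beta chain that sit in the cell membrane, bind laminins, collagens, fibronectin and other matrix proteins outside the cell and link them to the actin or keratin skeleton inside. In the developing gut tube and lung, the chains present at the boundary of epithelium and mesenchyme change as organs bud and branch. The arrays measure RNA of whole primordia, so that fewer cells of a type and less RNA per cell cannot be told apart.

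Levels are given as log2 signal minus the 75th percentile of the same array, so that 0 marks the signal that 75 percent of spots do not exceed. Values given along the gut, or from esophagus to intestine, stand in the order esophagus, stomach, intestine. Levels compare 1 probe between organs and never 1 gene with another. The lung array was dim: 39.0% of its spots were well above background, the scanner software's flag for a measurable spot, against 67.9% to 74.0% on the other arrays, and its 75th percentile signal was 33.4 against 334 to 1023. The lowest level well above background was accordingly -2.45 in lung and -5.81 to -6.97 elsewhere. Folds against an organ where the gene was not well above background are lower bounds and carry the words "at least". The median SD over repeated spots of a probe was 0.07 to 0.11 on the log2 scale, and it covers error within an array only. Nkx2-1, a lung and thyroid regulator, was highest in lung at 2.41, Barx1, of stomach mesenchyme, in stomach at 4.43, and Cdx2, of intestinal epithelium, in intestine at 1.85, each on the array whose label names its organ.

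Of the 33 genes, 31 were measurable in 1 organ or more and 18 in all 4. The number was 18 in lung, then 30, 29 and 31 along the gut, by the brightest probe of each gene. Itgb4 was measurable in lung by its other probe only. Itga7, the laminin-binding alpha chain of muscle, and Itgax, a leukocyte alpha chain, were not well above background in any organ. Lamc3 reached that level in intestine only, at -6.01, near the lowest the array resolves. A gene is represented by its brightest probe unless stated otherwise, and 22 of the 33 genes had 1 probe only.

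**Figure D1:**
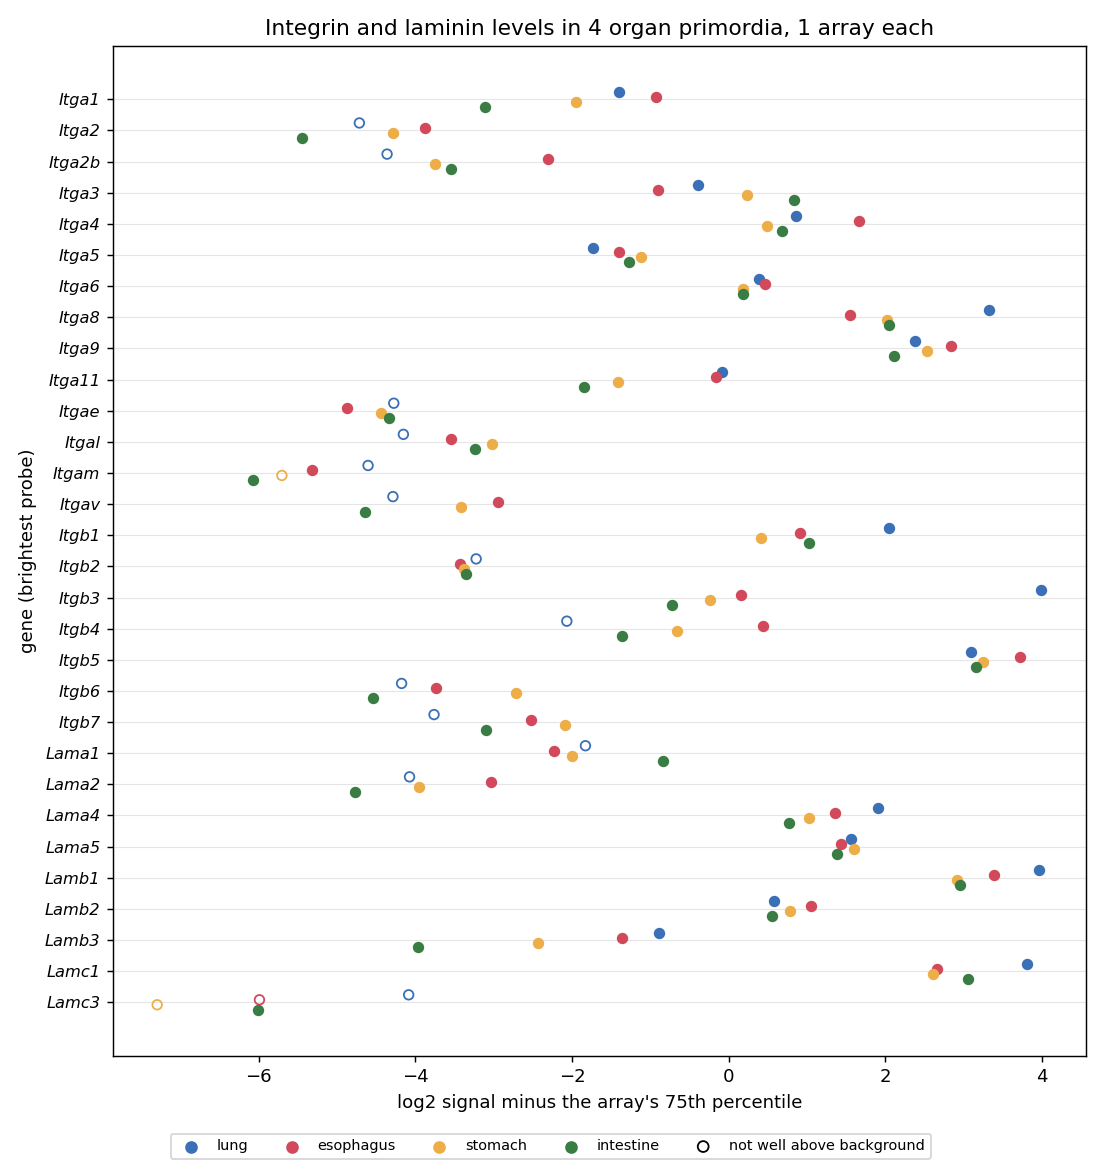
Level of 30 integrin and laminin genes well above background on at least 1 array, as log2 signal minus the array's 75th percentile (horizontal axis), with 1 point per organ primordium and open points where the probe was not well above background. Itgb3 stands apart in lung at 3.99, while Lama5 and Itga6 differ little between organs, and most open points are lung.

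The first comparison asked how many members differed between pairs of organs. A member was counted when the organs were at least 2-fold apart. Between esophagus and stomach 9 of 30 members were (30.0%), against 9.87% of all named genes, and between stomach and intestine 8 of 29 (27.6%), against 12.3%. Esophagus and intestine, the ends of the tube measured here, gave 10 of 30 (33.3%), against 20.7%. For lung the numbers were 6 of 20 against esophagus (30.0%, with 25.5% of all genes), 9 of 20 against stomach (45%, with 23.9%) and 10 of 20 against intestine (50%, with 20.4%). The lung share against esophagus thus lay near that of all genes, and the others lay above it at this scaling. Under median centring the share was 32.3% for esophagus against intestine (33.4% of all genes), 16.7% for esophagus against stomach (11.1%) and 13.3% for stomach against intestine (13.3%). Stomach against intestine also gave 13.3% under quantile normalization (10.3% of all genes), esophagus against stomach 10.3% under normexp (3.22%) and lung against intestine 33.3% under normexp (32.0%). These shares against intestine lay near that of all genes, while the other pairs with intestine stayed above it in the same settings. Lung against intestine gave 10 of 20 under median centring (21.7% of all genes) and 7 of 20 under quantile normalization (17.5%). Esophagus against intestine gave 30.0% under quantile normalization (20.8%) and 33.3% under normexp (17.9%). Stomach against intestine gave 27.6% under normexp (15.0%). The share for esophagus against stomach stayed above that of all genes. These comparisons share arrays with each other.

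**Figure D2:**
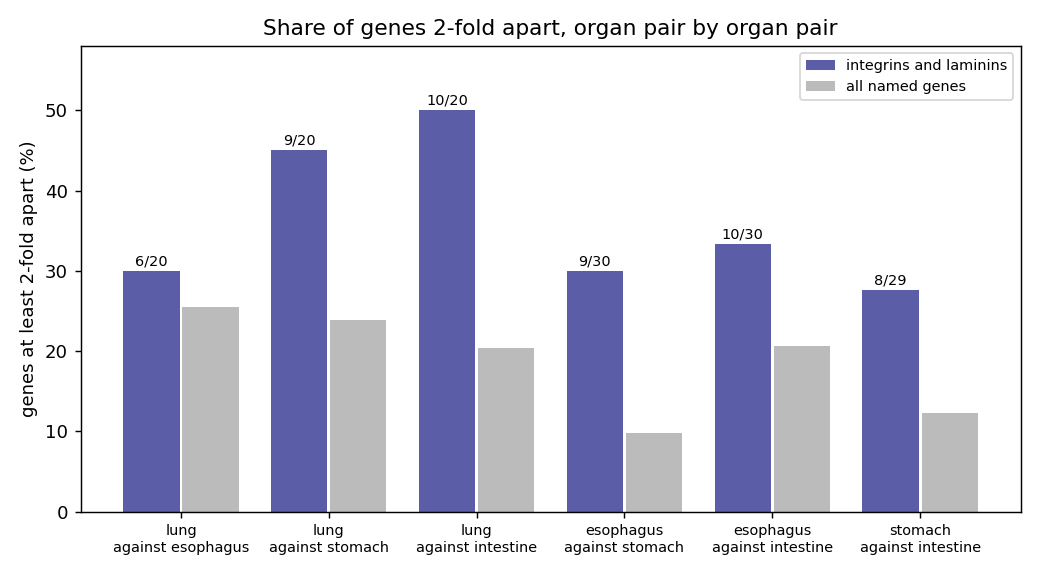
Share of genes at least 2-fold apart (vertical axis, percent) in each organ pair, for integrins and laminins (with the count of those that could be compared) and for all named genes. The share of integrins and laminins was 30.0% between esophagus and stomach, where that of all genes was 9.87%, and it was nearest to that of all genes between lung and esophagus.

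Among the gut members 2-fold apart, more were higher in the segment nearer the mouth, except from stomach to intestine under median centring or quantile normalization, where the split was 2 to 2. From esophagus to stomach 7 were higher in esophagus (5.72% of all genes were) and 2 in stomach (4.15% of all genes). From stomach to intestine 6 were higher in stomach (7.34% of all genes) and 2 in intestine (5.01%). From esophagus to intestine 8 were higher in esophagus (11.8% of all genes) and 2 in intestine (8.83%). Lung was the higher organ for 5 members against esophagus (15.9% of all genes), 8 against stomach (14.0%) and 9 against intestine (11.8%), and the lower for 1 in each case (9.57%, 9.87% and 8.59% of all genes). With background correction by normexp, a model of signal and background that here adds an offset above the lung array's 75th percentile, the split for lung against esophagus was 2 to 3, against stomach 5 to 2 and against intestine 4 to 2. With the percentile taken over bright probes only (those measurable on all 4 arrays) it was 3 to 2 against esophagus and 5 to 2 against intestine. Esophagus over stomach was 3 to 2 under median centring and 2 to 1 under normexp, and stomach over intestine was 7 to 1 under normexp.

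Over the 18 members well above background on all 4 arrays, the median log2 difference of esophagus over intestine was 0.47, and over all 9497 such genes it was -0.17. Esophagus over stomach had a median of 0.36 for the members and -0.16 for all genes. Lung over intestine had 0.88 for the members and 0.20 for all genes, lung over stomach 0.71 and 0.22, and lung over esophagus 0.30 and 0.36. Stomach over intestine had 0.12 and -0.02. Centring arrays on the median moved the median of all genes to 0.96 for lung over esophagus and -0.68 for esophagus over intestine. It moved the members' median for esophagus over intestine to -0.03. Members and all genes shift by the same amount under this centring. Their gap of 0.64 therefore could not change and is no check. Among the 7 laminins in this set the median for lung over stomach was 1.04, and among the 11 integrins it was 0.37.

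The second comparison followed the 3 gut segments in order and left the dim lung array out. Of 29 members well above background in all 3 segments, 7 were stepwise lower from esophagus over stomach to intestine with the ends at least 2-fold apart (24.1%, against 8.64% of all genes), and 2 were stepwise higher (6.90%, against 6.04%). The 7 were the collagen-binding alpha chains Itga1, Itga2 and Itga11, the alpha chain of vitronectin receptors Itgav, the hemidesmosome chain Itgb4 and the laminin chains Lama2 and Lamb3. The 2 were Itga3 and Lama1. Under each of 5 other scalings or background corrections 6 of the 7 kept the order and size; Itga2 lost it under quantile normalization and normexp, and Lama1 lost the opposite order under normexp. Markers of muscle had their highest summed level, in units of the array's 75th percentile, on the esophagus array too, and so did those of mesenchyme as a sum. Mesenchymal markers summed to 265 in lung, then 330, 216 and 180 along the gut, with 8, 9, 9 and 9 of 9 well above background. Of these 9 markers only Col1a1, Col1a2 and Twist1 were highest in esophagus, while Vim, Pdgfrb and Col3a1 were highest in lung, Pdgfra and Foxf1 in stomach and Lum in intestine. Smooth muscle markers summed to 150 in esophagus and 46.8 to 73.4 elsewhere, with 8 of 8 well above background in each organ. Striated and heart muscle markers summed to 126 in esophagus and to 9.09, 3.43 and 4.0 in lung, stomach and intestine, and 9 of 10 exceeded each other organ there by 2-fold or more. Their part in the gut order of these genes was not tested.

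**Figure D3:**
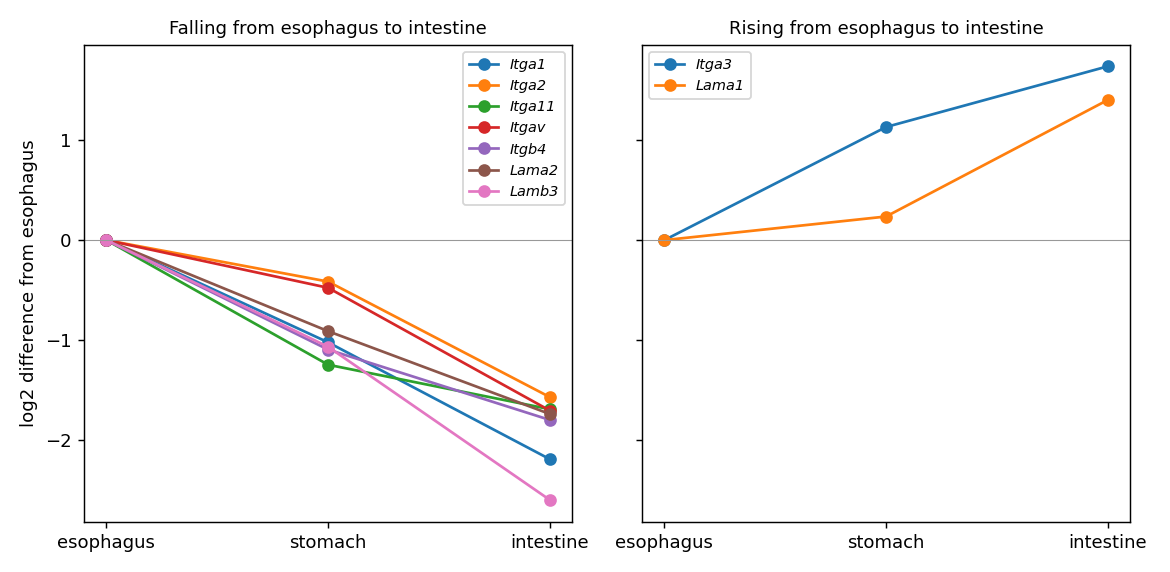
Log2 difference from esophagus (vertical axis) in stomach and intestine for the 7 genes stepwise lower along the gut (left) and the 2 stepwise higher (right), 1 array per organ. Lamb3 and Itga1 lie furthest below their esophagus level in intestine, and Itga3 and Lama1 lie above theirs.

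The collagen-binding chains Itga1, Itga2 and Itga11 had the same gut order. Itga1, whose product pairs with beta1 and binds collagen IV and I, stood at -1.39 in lung and -0.92, -1.94 and -3.11 from esophagus to intestine. It was 4.56-fold higher in esophagus than in intestine, and 2.25-fold lower in intestine than in the next organ. Its second probe read -1.40, -1.56, -2.92 and -4.07 in the same organs, with the same gut order. Itga11, a receptor of mesenchymal cells for fibrillar collagen, stood at -0.09 in lung and -0.16 in esophagus, and at -1.41 in stomach and -1.85 in intestine. It was 3.22-fold higher in esophagus than in intestine. Lung minus esophagus was 0.07 on the log2 scale, and it was 0.67 under median centring and -0.22 with the percentile over bright probes, so their order depends on the scaling. Itga2 was low throughout, at -3.88, -4.29 and -5.44 along the gut and not well above background in lung, and was 2.97-fold higher in esophagus than in intestine.

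Because these 3 alpha chains were lower towards the intestine together with Lamb3, the 250 bases before their annotated starts are shown, from RefSeq on build GRCm38.p6, 5′ to 3′ on the gene's strand, with CG dinucleotides in capitals. Lamb3 has 2 entries in that table and the upstream one is shown.
Itga1, chr13:115101965-115102214, minus strand: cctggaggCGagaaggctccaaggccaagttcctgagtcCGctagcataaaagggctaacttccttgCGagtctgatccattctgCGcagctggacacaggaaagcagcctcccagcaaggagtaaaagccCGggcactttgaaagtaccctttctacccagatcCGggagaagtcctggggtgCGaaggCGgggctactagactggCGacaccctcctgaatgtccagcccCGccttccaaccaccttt
Itga2, chr13:114932101-114932350, minus strand: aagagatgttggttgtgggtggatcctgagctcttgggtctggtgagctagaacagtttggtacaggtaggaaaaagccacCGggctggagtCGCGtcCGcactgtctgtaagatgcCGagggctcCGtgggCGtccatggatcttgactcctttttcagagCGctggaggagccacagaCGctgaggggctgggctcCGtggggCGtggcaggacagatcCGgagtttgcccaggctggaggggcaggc
Itga11, chr9:62677605-62677854, plus strand: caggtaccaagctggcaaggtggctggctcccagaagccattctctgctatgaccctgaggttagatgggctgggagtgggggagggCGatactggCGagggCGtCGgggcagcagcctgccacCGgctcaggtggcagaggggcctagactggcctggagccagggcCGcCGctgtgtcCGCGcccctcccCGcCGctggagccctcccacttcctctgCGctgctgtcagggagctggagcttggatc
Lamb3, chr1:193301744-193301993, plus strand: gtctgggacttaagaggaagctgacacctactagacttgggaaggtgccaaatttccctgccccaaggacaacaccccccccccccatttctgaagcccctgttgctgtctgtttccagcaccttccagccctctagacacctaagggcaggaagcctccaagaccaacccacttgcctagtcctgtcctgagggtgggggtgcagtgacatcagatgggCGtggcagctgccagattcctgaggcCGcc
The windows hold 10, 12, 12 and 2 CG dinucleotides in that order, against a median of 6 over 32851 promoters of the same length and 10 over the 26 integrin and laminin entries. Of the other genes stepwise lower along the gut, Itgav has 18 in its window and Lama2 has 0, so the number differs widely among them. Itga1 and Itga2 lie on the same chromosome and strand. On either strand, none of the 26 entries held the letters TATAAA (12.4% of all promoters did), 4 held CCAAT (33.8% of all) and 9 held GGGCGG (32.7% of all). None of the 4 windows shown held any of these. The matches are letters in a window and say nothing about binding.

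Among the laminin-binding alpha chains, Itga3 went the other way along the gut and Itga6 hardly differed. Itga3, which pairs with beta1 and binds laminins with the alpha5 or alpha3 chain, stood at -0.39 in lung, then -0.89, 0.24 and 0.84 along the gut, 3.33-fold higher in intestine than in esophagus. A second probe had the same order, at -0.56, -0.90, -0.36 and 0.23. The third and dimmest probe read -3.69 in esophagus, -2.91 in stomach and -3.42 in intestine, with stomach highest. Itga6, which pairs with beta1 or beta4, stood at 0.39, 0.47, 0.19 and 0.19 in lung, esophagus, stomach and intestine. Its whole range was 0.28 on the log2 scale, less than scaling moves the median of all genes.

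The chains that bind the arginine-glycine-aspartate motif of fibronectin and its relatives differed from each other. Itga8, a mesenchymal receptor for nephronectin, stood at 3.32 in lung and 1.56, 2.02 and 2.05 from esophagus to intestine. Lung was 2.41-fold above intestine and 3.40-fold above esophagus by this probe, and a second probe read 2.75, 0.59, 1.25 and 1.54. The third probe, at -2.35, -2.24 and -3.65 in esophagus, stomach and intestine, was not well above background in lung, where it read -4.65. The lowest level well above background in lung was -2.45, close below the esophagus and stomach readings, so this probe does not place lung. The lung margin of Itga8 was 1.27 on the log2 scale, and 0.08 under normexp and 0.13 with the mean of all probes. Itgav, which pairs with several beta chains, stood at -2.94, -3.42 and -4.64 along the gut, and was not well above background in lung. Itga5, the fibronectin receptor chain, stayed between -1.73 in lung and -1.12 in stomach, a range of 1.52-fold. Itga2b, the platelet alpha chain, stood at -2.31 in esophagus, -3.75 in stomach and -3.55 in intestine, 2.71-fold higher in esophagus than in stomach, and was not well above background in lung.

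Itga4 and Itga9, chains that bind fibronectin, tenascin and Vcam1, were highest in esophagus. Itga4 stood at 0.86 in lung, then 1.67, 0.49 and 0.68 along the gut, 2.27-fold higher in esophagus than in stomach. Its other probes also had esophagus highest, at -2.75 and -2.82, against -4.42 and -4.84 in stomach and -4.27 and -5.90 in intestine. Itga9 stood at 2.39, 2.84, 2.53 and 2.11 in lung, esophagus, stomach and intestine, with no pair 2-fold apart. The esophagus was highest for Itga4 under all 5 other scalings, and for Itga9 under 4 of them.

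Alpha chains of leukocytes were at the low end of the arrays. Itgae, Itgal and Itgam were each not well above background in lung. Itgae lay between -4.87 and -4.34 in the gut segments and Itgal between -3.54 and -3.02. Itgam stood at -5.32 in esophagus and -6.07 in intestine and was not well above background in stomach. Itgb2, their shared beta chain apart from Itgae, lay between -3.43 and -3.36 in the gut segments, a range of 1.05-fold, and was not well above background in lung. Markers of macrophages and leukocytes were present beside them, with 9 of 9 measured in esophagus and intestine, 8 in stomach and 6 in lung well above background. Their summed level, in units of the array's 75th percentile, was 6.86 in lung and 4.28, 5.54 and 6.53 from esophagus to intestine. Of these 9 markers 5 had their highest reading in intestine, 3 in lung and 1 in esophagus. Spi1, 1 of the 3 in lung, was not well above background there. Csf1r stood at 0.64 in lung and at -0.55 to -0.32 in the gut segments, where Ptprc stood at -3.53 to -2.66. Their part in the leukocyte integrin signals was not tested.

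Of the beta chains, Itgb3 had the widest difference of all members. Itgb3, the partner of Itgav and Itga2b, stood at 3.99 in lung, then 0.16, -0.24 and -0.73 along the gut, from 1 probe and 1 spot per array. Lung was 14.2-fold above esophagus, 18.8-fold above stomach and 26.4-fold above intestine. It was the 1 member of 18 at least 4-fold above every other organ in lung, where 0.714% of all genes were. The lung margin lay between 2.42 and 4.43 on the log2 scale under the other scalings and background corrections. Neither partner chain was well above background in lung, where the lowest level so called was -2.45. Itgav lay below that level in every gut segment, and Itga2b did in all but esophagus (-2.31). The lung array could thus hardly show these chains at their gut levels, and nothing is concluded from it. Markers of megakaryocytes and platelets, which carry Itgb3, had a summed level of 16.6 in lung and 12.7, 5.61 and 8.28 from esophagus to intestine, with 6, 9, 9 and 9 of 9 measured well above background. Their defining members Pf4 and Ppbp stood at 3.64 and 0.77 in lung and at 3.18 and 0.15 in esophagus, differences of less than 2-fold. The part of these cells in the Itgb3 level was not tested.

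The Itgb1 probes disagreed. Itgb1 is the beta chain shared by the collagen receptors, most laminin receptors and the fibronectin receptor. Its brightest probe was spotted several times and read 2.05 ± 0.06 in lung (SD over 9 spots), 0.91 ± 0.08 in esophagus (9 spots), 0.41 ± 0.04 in stomach (8 spots) and 1.03 ± 0.04 in intestine (7 spots). By this probe lung was 2.03-fold above intestine, the next organ. The other probe, with 1 spot, read -1.77 in lung, then 1.67, 1.02 and -0.42 along the gut, which puts lung lowest. Both probes are assigned to the same transcript accession. The lung minus esophagus difference was 1.14 by the first probe and -3.44 by the second, a gap of 4.59 against spot SDs below 0.1. In esophagus over stomach they had the same sign, 0.50 and 0.66. Lung is therefore counted above every other organ for Itgb1 by 1 probe of 2, and below by the other.

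**Figure D4:**
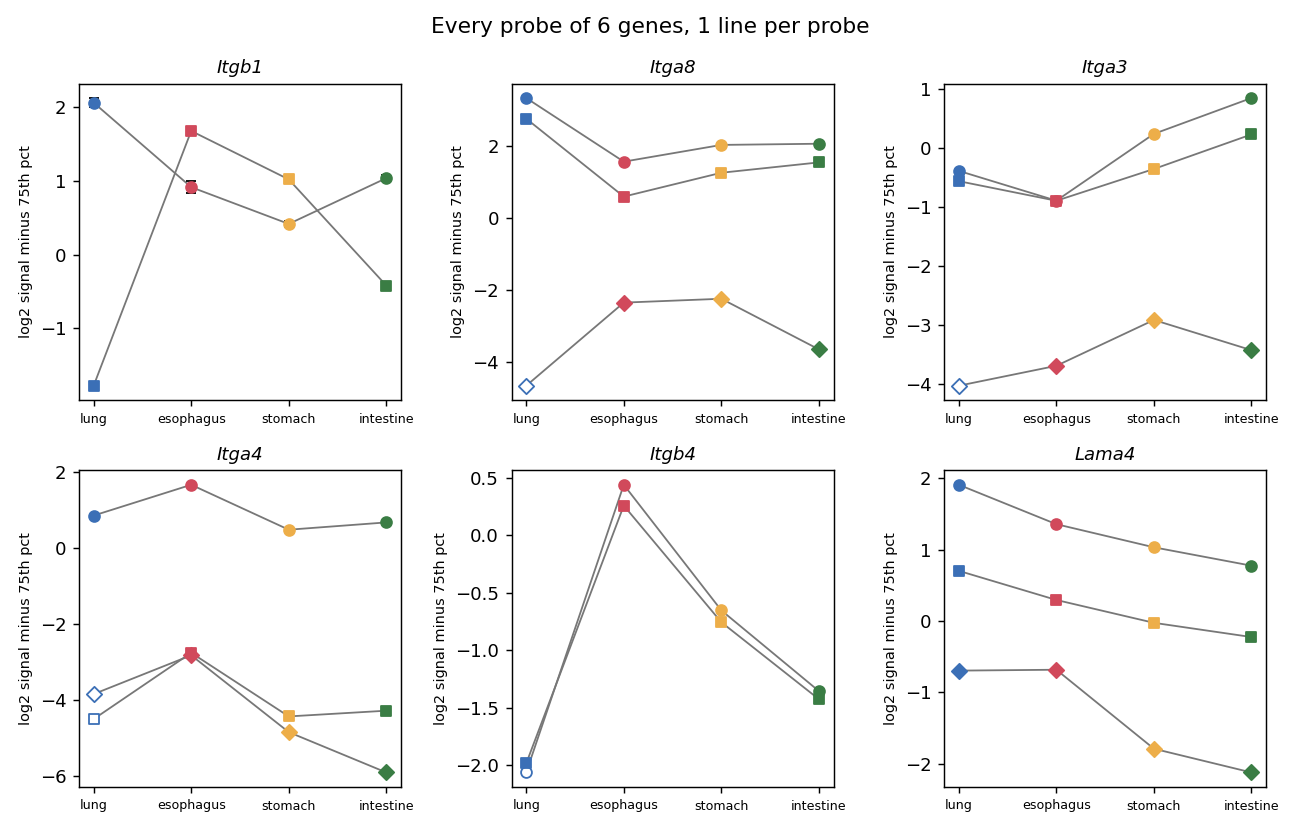
Every probe of 6 genes, as log2 signal minus the array's 75th percentile (vertical axis) by organ, with 1 line per probe, open points where a probe was not well above background and the SD over repeated spots as bars for the brightest Itgb1 probe (smaller than the points in most organs). The Itgb1 lines cross, with lung highest by 1 probe (2.05) and lowest by the other (-1.77), while both Itgb4 probes have esophagus highest.

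Over the 9 members with more than 1 usable probe, 54 of 70 comparisons of a probe pair in an organ pair had the same sign. The share was 16 of 16 for esophagus against stomach, 13 of 16 for esophagus against intestine and 10 of 17 for stomach against intestine. It was 3 of 7 for lung against esophagus and 6 of 7 for lung against stomach and against intestine. The median gap between 2 probes was 0.43 on the log2 scale.

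Itgb4, which pairs with Itga6 in hemidesmosomes and links laminin to keratin, was highest in esophagus. It stood at 0.44, -0.65 and -1.36 along the gut, and its brightest probe was not well above background in lung at -2.06. Esophagus was 2.13-fold above stomach and 3.47-fold above intestine by this probe. The second probe, well above background in lung, read -1.99, 0.26, -0.76 and -1.43 in lung, esophagus, stomach and intestine, with esophagus 4.74-fold above lung. Itgb4 was the only member of 22 at least 2-fold above every other organ in esophagus, where 1.53% of all genes were. Its margin was 1.09 on the log2 scale, with 0.89 under median centring and 0.73 under normexp. Markers of stratified or basal epithelium, in which hemidesmosomes form, were higher on the same array: their summed level was 10.496 in esophagus, 2.81 in stomach, 1.66 in lung and 0.90 in intestine, 7 of 7 were well above background in esophagus, and 4 (Trp63, Krt5, Krt15 and Perp) exceeded each other organ by 2-fold or more there. Of these 7 markers, 6 had their highest reading in esophagus. Krt14 had it in intestine, at -3.82, -3.73 and -3.62 along the gut. Trp63 and Krt5, which define such cells, read 0.25 and -0.65 in esophagus, and neither was measurable in lung. Their part in the Itgb4 level was not tested.

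Of the remaining beta chains, Itgb5 differed little and Itgb6 and Itgb7 were highest in stomach among the gut segments. Itgb5, another partner of Itgav, stood at 3.10 in lung and 3.72, 3.25 and 3.16 from esophagus to intestine, a range of 1.54-fold. Itgb6, an epithelial partner of Itgav, stood at -3.73 in esophagus, -2.71 in stomach and -4.54 in intestine, 2.03-fold higher in stomach than in esophagus and 3.55-fold higher than in intestine. Itgb7, a leukocyte chain, stood at -2.53, -2.09 and -3.10 in the same segments, 2.01-fold higher in stomach than in intestine. Neither Itgb6 nor Itgb7 was well above background in lung, and stomach was the highest gut segment for both under all 5 other scalings.

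Laminin alpha chains decide which integrins bind. Lama5, the main alpha chain of epithelial basement membranes, was level across the organs, at 1.56 in lung, then 1.44, 1.60 and 1.38 along the gut. Its range was 1.16-fold, and which organ was highest changed with the scaling. Lama1, the first alpha chain of the embryo, stood at -2.23 in esophagus, -2.0 in stomach and -0.83 in intestine, 2.24-fold higher in intestine than in stomach and at least 1.99-fold above lung. Lama4, of vessels and mesenchyme, stood at 1.91 in lung and 1.36, 1.03 and 0.78 from esophagus to intestine, 2.20-fold from end to end. Its other probes read 0.70, 0.30, -0.03 and -0.22, and -0.70, -0.68, -1.79 and -2.12, with intestine lowest by all 3. Lama2, the muscle and mesenchyme chain, stood at -3.04 in esophagus, -3.95 in stomach and -4.77 in intestine, 3.33-fold higher in esophagus than in intestine, and was not well above background in lung.

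The common beta and gamma chains, Lamb1 and Lamc1, had their highest levels in lung. Lamb1 stood at 3.96 in lung, then 3.39, 2.92 and 2.95 along the gut, 2.06-fold from lung to stomach. Lamc1 stood at 3.82, 2.67, 2.61 and 3.06 in the same organs, 2.30-fold from lung to stomach. Lung was highest for each under 4 of 5 other scalings. Lamb2, a chain of muscle, nerve and kidney membranes, lay between 0.56 in intestine and 1.05 in esophagus, with no pair 2-fold apart.

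Lamb3, the beta chain of the laminin of hemidesmosomes, differed more than the common chains. Lamb3 stood at -0.88 in lung and -1.37, -2.43 and -3.96 from esophagus to intestine. It was 8.45-fold higher in lung than in intestine, 6.04-fold higher in esophagus than in intestine, and 2.89-fold lower in intestine than in the next organ. The value comes from 1 probe. Lung was highest and intestine lowest under all 5 other scalings.

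Set against the same count for all genes, lung exceeded each other organ by 2-fold or more for 4 of 18 members (22.2%, against 6.52% of all genes), among them Itga8, Itgb1 and Itgb3. The count was 2 under normexp and under the percentile over bright probes, 7 under median centring, and 2 with the mean of all probes. No member was so in stomach (0 of 22, with 0.487% of all genes) or intestine (0 of 22, with 1.5%). Below every other organ by at least 2-fold were Itga1 and Lamb3 in intestine (2 of 18, with 1.55% of all genes). The Itga1 margin of 1.17 on the log2 scale was below 2-fold under median centring (0.87) and quantile normalization (0.95), which leaves Lamb3 alone in intestine there. In stomach the count was 1 of 18, with 0.516% of all genes. No member was so in lung (0 of 19, with 3.29%) or esophagus (0 of 18, with 0.305%). With the lung array left out, the esophagus exceeded both other segments by 2-fold or more for 5 of 30 members (4.38% of all genes), stomach for 1 of 29 (1.11%) and intestine for 1 of 30 (3.52%). In intestine 4 of 29 members stood as far below both other segments (5.23% of all genes), and in esophagus 1 of 29 did (2.25%).

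Other genes of adhesion to the matrix gave the setting. Of 14 measured partners in the basement membrane, Fras1 and Frem2 exceeded each other organ by 2-fold or more in esophagus, and Frem2 was as far below each other organ in intestine. Fras1, which joins epithelium to mesenchyme, stood at 0.87 in lung and 3.39, 2.25 and 1.28 from esophagus to intestine. Frem2, of the same complex, stood at 1.38, 3.04, 1.37 and -0.50. The collagen IV chain Col4a4 was highest in intestine at 0.0032 and lowest in lung at -1.34. The list's median for esophagus minus the mean of the other organs was 0.10, and that of all genes was -0.24.

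Of 17 other integrin ligands, Tnc and Thbs1 exceeded each other organ by 2-fold or more in esophagus and Vtn in intestine, while Fn1 and Npnt were at least 2-fold below every other in lung and Thbs1 in intestine. Vtn, vitronectin, a plasma ligand of Itgav receptors, stood at -1.41 in lung and at -3.07, -3.28 and 0.81 along the gut. Fn1, fibronectin, stood at -0.58 in lung and 1.69, 0.73 and 0.51 along the gut. Thbs1, thrombospondin, stood at -1.80 in lung and -0.15, -1.98 and -3.24 along the gut. Among these 17 ligands, Fn1, Thbs1, Tnc, Vcam1 and Col1a1 were stepwise lower along the gut with the ends at least 2-fold apart. Of all genes 8.64% were. Spp1 and Madcam1 were stepwise higher by as much, as 6.04% of all genes were.

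Among 8 other laminin receptors, Sdc2, a syndecan, was at least 2-fold above every other organ in lung, at 3.84 against 2.78 in intestine, and Sdc4 was at least 2-fold below every other in lung, at -0.53 against 0.73 in intestine. Dag1, dystroglycan, stood at 0.74 in lung, then 2.0, 1.95 and 1.03 along the gut. Of 21 measured proteins that link integrins to the skeleton, Lims2 was above every other organ in esophagus and Tln2 and Plec were below every other in lung, and the other 18 met neither mark in any organ. Tln2, a talin, stood at 0.63, 2.94, 2.50 and 1.68 in lung, esophagus, stomach and intestine, and Lims2 at -1.26, 0.33, -1.06 and -1.11. Pxn, paxillin, was highest in intestine at 0.74 and lowest in esophagus at -0.44. The list's median for lung over esophagus was 0.21, with 0.36 for all genes.

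Markers of other cell types also differed between the arrays. The summed level of epithelial markers was 57.9 in lung and 44.9, 107 and 56.9 from esophagus to intestine, with 10, 11, 11 and 11 of 11 well above background, Epcam between -0.81 and 0.21 and Cdh1 between -0.67 and 0.07. Of these 11 markers only the keratins Krt8, Krt18 and Krt19 had their highest reading in stomach, while 5 had it in lung and 3 in esophagus. Endothelial markers summed to 22.1 in lung, then 13.7, 11.0 and 16.7 along the gut, with 7, 8, 8 and 8 of 8 well above background. The highest reading was in lung for Cdh5, Emcn, Esam and Cldn5, and in intestine for Pecam1, Kdr, Tek and Tie1. Cldn5, the largest part of the lung sum, read 3.33 there and 1.52, 1.16 and 1.96 along the gut. Pecam1 read -0.27, -1.0 and -0.01 along the gut and was not well above background in lung, at -2.32. Markers of enteric neural crest summed to 14.7 in esophagus, 15.8 in stomach, 11.9 in intestine and 4.76 in lung.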

How the data were processed

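RNA of 4 primordia was labelled with Cy3 (Low Input Quick Amp kit) and read in 1 colour, per the labels' protocols; the 4 arrays shared 1 slide and 1 scan. Per the file headers, the deposited intensity values came from Agilent Feature Extraction 10.5.1.1 (protocol GE1_105_Dec08, design 014868, build mm8); the processed signal is background-subtracted and not scaled between arrays. The authors' deposited series table holds log2 values; it matched the values computed here (r of at least 0.99996; medians of its columns -3.56 for lung and -2.97, -3.17 and -3.47 along the gut) and served as an alternative.

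Each signal was taken to log2 and the 75th percentile of all non-control spots of its array subtracted; flagged outlier spots were left out and copies of a probe averaged. Of 41174 probes, 24375 matched 1 gene of the RefSeq table (GRCm38.p6) by accession; its build differs, so it gave names only. On an array where a probe was not well above background, the larger of its reading and the lowest measurable level stood in; pairs this could not resolve were not counted. Alternatives were 5 scalings or corrections, other probe and filter choices, and leaving lung out; normexp (offset 50, limma 3.58.1, R 4.3.3) used median spot signals, as the files carry no mean. Every member is named except 1 that is counted but not reported here by name, and from each partner list the 3 widest-ranging genes bright on all arrays; Tnc, Npnt, Plec and others that met a 2-fold mark are named after their values were seen. Members and lists were chosen with earlier results of these data known. Calculations used Python 3.11.15, numpy 2.4.6 and pandas 2.3.3 and were tested on simulated data.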

Additional observations from a re-analysis of the deposited data

How the results depend on the processing

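With 1 array per organ no replicate could be left out and no fold carries an error between samples; the number of arrays limits the precision, and signal over background limits lung, where 18 of 33 genes could be measured. No paired analysis was possible because each organ was 1 sample. Of 150 counts recomputed under an alternative, 113 stayed within 1.5 times and 37 did not; the cause was not tested except where fewer genes or arrays entered. The second-brightest probe, the counts along the gut, the counts below every other organ and the medians were alternatives or results added after the data were seen.

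Median centring gave 7 members above every other organ in lung and 0 in esophagus, 1 below in esophagus and 1 in intestine, 10 apart for lung against esophagus, 5 for esophagus against stomach and 4 for stomach against intestine. The percentile over bright probes gave 2 above in lung, 2 in esophagus and 1 in intestine. Quantile normalization gave 4 apart for stomach against intestine and 1 below in intestine. Normexp gave 2 above in lung, 0 in esophagus, 1 below in lung, 3 apart for esophagus against stomach, 6 for lung against intestine, and 1 stepwise higher along the gut. The mean of all probes gave 2 above in lung and 2 in esophagus. No filter on dim probes gave 7 above in lung, 2 in esophagus, 1 in stomach, 2 below in stomach, and 13 and 16 apart for lung against esophagus and stomach. Genes bright on all 4 arrays gave 0 above in esophagus, 4 apart for esophagus against intestine, 3 for stomach against intestine, 3 stepwise lower and 1 stepwise higher. Without the lung array there were 5 above in esophagus, 1 in stomach, 1 in intestine, 1 below in esophagus and 4 in intestine. The second-brightest probe gave 1 below in lung.

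The lung margin of Itgb1, 1.02, became -1.15 when probes were averaged and -3.44 by the second probe. The members' medians changed sign for esophagus over intestine (-0.033) and stomach over intestine (-0.17) under median centring, and for lung over intestine (-0.021) and stomach over intestine (-0.0005) under normexp. Of 30 members ranked, 16 kept their highest organ under all 5 other scalings or corrections and 14 both ends. The deposited table moved no count beyond 1.5 times.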
